A study of Mus musculus with 10 samples.

Results

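The collagen genes of interscapular brown adipose tissue (iBAT) were taken as every gene of the deposited expression table whose symbol has the form Col, a type number, a and a chain number, which gave 40 of the 15075 genes. They were split by type into 6 fibrillar genes (types I, III and V), 8 genes of basement membranes (types IV, XV and XVIII), 6 genes of type VI and 20 other collagens. The last class holds some fibril-forming types as well, such as XI, XXIV and XXVII. RNA was measured in 10 libraries from C57BL/6 mice of 20 weeks kept at room temperature. In 5 mice, called AdCKO, the gene for cardiolipin synthase (Crls1) carried floxed alleles (Crls1 fl/fl) and Cre was expressed from the adiponectin promoter (Adipoq-Cre), which acts in adipocytes of all fat depots and leaves the other cell types of the tissue with an intact gene. The 5 Control mice, labelled wild-type, carried the same floxed alleles without Cre. All libraries were made from polyadenylated RNA of whole iBAT.

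Collagens are built from 3 chains wound into a triple helix. Prolines and lysines of the chains are hydroxylated in the endoplasmic reticulum, the helix is secreted as procollagen, and for the fibrillar types the end pieces are cut off outside the cell before fibrils form. Fibrillar collagens give the interstitial matrix its tensile strength, type IV forms the sheet of basement membranes, and type VI forms beaded filaments that connect them. In fat each adipocyte is wrapped in a basement membrane, and much of the interstitial collagen is made by fibroblasts and adipocyte progenitors.

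The values are normalized reads per kb of counted exon, a level per gene length that allows genes to be set beside each other. A gene was tested when its mean reached 10 in at least 1 group, and it was called higher or lower at an adjusted p under 0.01 from limma on log2(value + 1), adjusted over the 11244 genes tested. A log2 fold change below is AdCKO minus Control on that scale, with its standard error (SE). Of all genes tested, 25.6% were called higher in AdCKO and 28.0% lower. Among those calls 47.7% were higher, against 86.5% after scaling to the same library total and 41.0% after quantile normalization. Crls1 had 1291, 927, 813, 1101 and 1169.8 normalized reads per kb in Control replicates 1 to 5 and 193, 195, 249, 208 and 242 in AdCKO replicates 1 to 5 (log2 fold change -2.27, adjusted p = 3.53e-08, limma). The brown adipocyte markers summed to 228751 to 260485 normalized reads per kb in Control and 139594 to 165020 in AdCKO. Most of each sum was Fabp4 (means of 147241 and 108235), so the sum does not measure the content of brown adipocytes. Ucp1 had means of 36912 and 14069 and Cidea of 18170 and 6207, and both were thus lower in AdCKO but abundant in every library. AdCKO replicates 1, 2 and 4 held RNA of skeletal muscle (summed markers of 6329, 23796 and 9299, against 140 to 154 in the other AdCKO libraries and 107 to 135 in Control). Counts of calls without these 3 libraries are given beside those of all libraries. With 2 AdCKO libraries left, calls over all genes fell from 2879 to 2083 higher and from 3152 to 2191 lower. In these counts the loss of muscle RNA and the loss of libraries cannot be told apart.

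Most of the abundant collagens were higher in AdCKO. Of the 40 genes, 19 were tested, and 15 were called higher, 1 lower and 3 neither. For the 15, all AdCKO values were above all Control values, which was so for 24.5% of the genes tested, and for Col27a1 and Col20a1 all were below, which was so for 26.4%. Col14a1 and Col16a1 reached the level for testing only in AdCKO and Col20a1 only in Control, so each had to differ in that direction to be tested. Of the 16 genes that reached it in both groups, 13 were higher, 1 was lower and 2 were not called. The median log2 fold change of the 19 was 2.04, against -0.01 over all genes tested. Without the 3 AdCKO libraries with muscle RNA the counts were again 15 higher (6 fibrillar, 5 basement membrane, 3 type VI and 1 other) and 1 lower, with Col14a1 no longer tested and Col4a5 among the genes called higher.

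**Figure D1:**
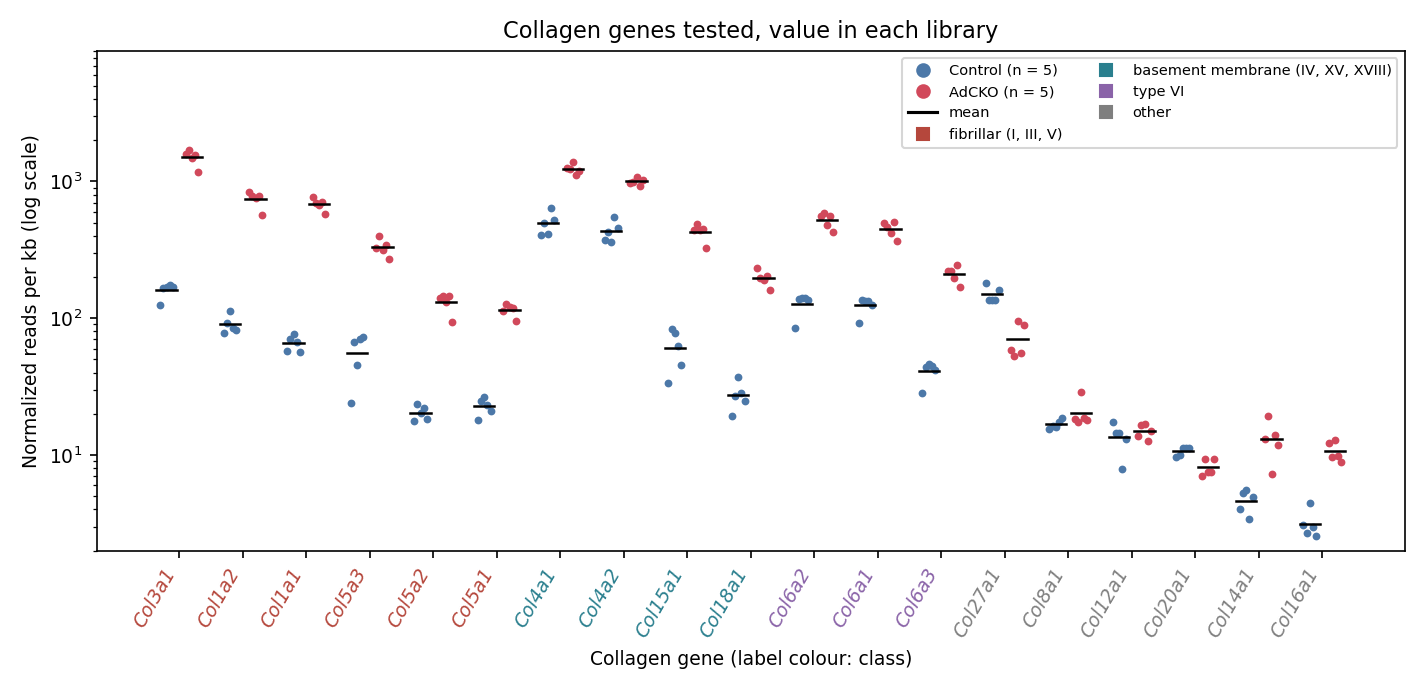
Normalized reads per kb (log scale) of the 19 collagen genes tested, with a point for each of 5 Control and 5 AdCKO libraries and a line at the mean, and with gene labels coloured by class. All fibrillar, basement membrane and type VI genes shown have AdCKO points above the Control points, while Col27a1 has its 5 AdCKO points, 52.9 to 95.2, below the Control points, 135 to 181.

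All 6 fibrillar genes rose, and the genes of types I and III had the largest log2 fold changes of the collagens tested. The median log2 fold change of the 6 was 2.84, with a range of 2.30 to 3.36. Col1a1 (mm9, chromosome 11, 94797584 to 94813170, plus strand), which encodes the alpha 1 chain of type I collagen, had 57.7, 71.0, 76.5, 66.5 and 56.9 normalized reads per kb in Control replicates 1 to 5 and 775, 689, 671, 703 and 579 in AdCKO replicates 1 to 5. The lowest AdCKO library was thus several times the highest Control library. The group means of 65.7 ± 8.46 and 683 ± 70.3 (SD, n = 5 each) gave a ratio of 10.4 and a log2 fold change of 3.36 (SE 0.10, adjusted p = 4.38e-10, limma). Its exons overlap those of Gm17329 on the opposite strand, and since the library kit does not mark strand, reads of the overlap cannot be told apart.

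Col1a2 (mm9, chromosome 6, 4455697 to 4491543, plus strand), the partner chain of type I collagen, had 78.4, 91.6, 113, 84.5 and 82.4 in Control and 840.3, 779, 759.8, 786 and 563 in AdCKO. It rose 8.28-fold (log2 fold change 3.03, SE 0.12, adjusted p = 3.59e-09, limma). Type III collagen is made of 1 kind of chain, encoded by Col3a1 (mm9, chromosome 1, 45368383 to 45406551, plus strand), and is laid down with type I in soft tissues. Col3a1 had 125, 166, 169, 176 and 169 in Control and 1594, 1707, 1492, 1547 and 1163 in AdCKO. In Control it was the third most abundant collagen and in AdCKO the first. The ratio of means was 9.33 and the log2 fold change 3.21 (SE 0.12, adjusted p = 1.80e-09, limma). In both type I and type III genes AdCKO replicate 5 was the lowest of its group.

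The promoter windows of Col1a2 and Col3a1 are shown because both genes rose and their base composition differs. Windows are from RefSeq (GRCm38.p6) and run from 250 bases before the annotated start to 50 bases after it, 5′ to 3′ on the gene's strand. Capitals mark CCAAT and GGGCGG or their reverse complements ATTGG and CCGCCC, and neither motif overlaps the other. Col1a2 lies at chr6:4505368-4505667 and Col3a1 at chr1:45311288-45311587, both on the plus strand.
Col1a2: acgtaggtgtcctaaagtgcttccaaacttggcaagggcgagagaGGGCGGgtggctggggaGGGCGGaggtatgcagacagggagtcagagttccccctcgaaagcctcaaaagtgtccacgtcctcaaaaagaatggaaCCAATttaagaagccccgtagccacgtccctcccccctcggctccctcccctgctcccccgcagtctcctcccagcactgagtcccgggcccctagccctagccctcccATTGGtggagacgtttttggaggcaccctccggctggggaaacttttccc
Col3a1: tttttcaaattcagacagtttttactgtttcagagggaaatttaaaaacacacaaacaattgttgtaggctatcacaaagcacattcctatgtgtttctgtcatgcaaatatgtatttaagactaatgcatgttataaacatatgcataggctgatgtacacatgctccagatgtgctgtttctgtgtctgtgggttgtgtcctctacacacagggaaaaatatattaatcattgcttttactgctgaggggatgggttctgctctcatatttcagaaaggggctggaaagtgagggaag
The Col1a2 window had 61.0% G or C, with CCAAT beginning at -109, ATTGG at 1 and GGGCGG at -205 and -188, where 1 is the annotated start. The Col3a1 window had 37.7% G or C and held neither motif, and it held TATAA at -117, overlapping its reverse complement TTATA at -118. Col1a1 and Col5a2 had no window in the table.

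Type V collagen is a minor component that sits inside type I fibrils and limits their width. Col5a2 had 17.7 to 23.6 in Control, with a median of 20.3, and 140.3, 145, 131, 144 and 94.1 in AdCKO replicates 1 to 5. Col5a1 went from 22.6 ± 3.32 to 115 ± 12.3 (SD, n = 5 each; log2 fold change 2.30, SE 0.11, adjusted p = 1.56e-08, limma). Col5a3, whose chain is found in fewer tissues than those of Col5a1 and Col5a2, varied more in Control, with 23.9, 67.3, 45.4, 69.9 and 73.2, and lay between 271 and 397 in AdCKO. The groups did not overlap for any of these 3 genes, and Col5a2 and Col5a3 had log2 fold changes of 2.61 (SE 0.13) and 2.64 (SE 0.26).

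**Figure D2:**
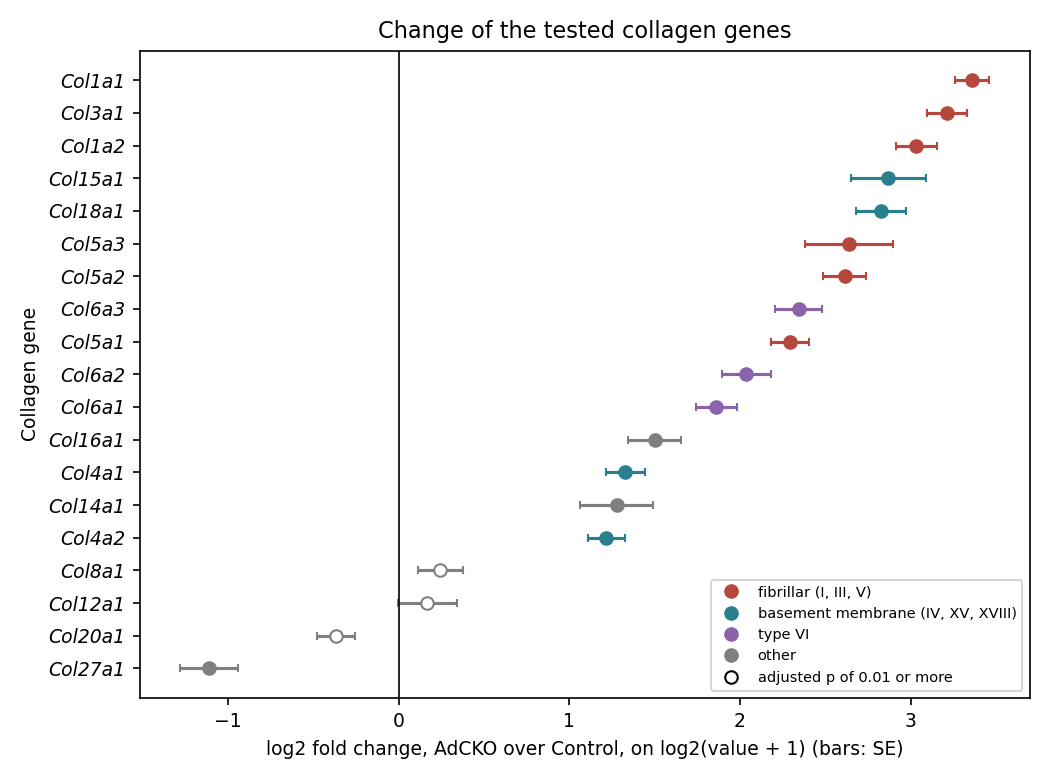
Log2 fold change (AdCKO over Control on log2(value + 1), bars are SE) of the 19 collagen genes tested, coloured by class, with open points for an adjusted p of 0.01 or more. The genes run from Col1a1 at 3.36 to Col27a1 at -1.11, and Col4a1 at 1.33 and Col4a2 at 1.22 lie below every fibrillar and type VI gene.

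Of the 8 basement membrane genes 4 were tested, and all 4 were called higher, with a median log2 fold change of 2.08. Col4a1 (mm9, chromosome 8, 11198423 to 11312826, minus strand) and Col4a2 (mm9, chromosome 8, 11312829 to 11449287, plus strand) encode the chains of the most widespread type IV network. Col4a1 was the most abundant collagen in Control, with 406, 493, 415, 635 and 524, and had 1245, 1241, 1379, 1104 and 1189 in AdCKO (2.49-fold, log2 fold change 1.33, SE 0.12, adjusted p = 1.06e-06, limma). Col4a2 had 371, 427, 361, 551 and 458 in Control and 979, 993, 1076, 925 and 1022 in AdCKO (2.30-fold, log2 fold change 1.22, SE 0.11, adjusted p = 1.08e-06, limma). Both kept to the same order of Control libraries at the top, with replicate 4 the highest and replicate 5 next. Unlike the fibrillar genes, AdCKO replicate 5 was not the lowest library for either gene.

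The start regions of this pair are shown because the genes lie head to head and both rose. The counted transcripts start with 2 bases between them in mm9. In GRCm38.p6 the annotated genes overlap by 22 bases, so that the printed windows share 78 bases on opposite strands. Col4a1 lies at chr8:11312777-11313076 on the minus strand and Col4a2 at chr8:11312555-11312854 on the plus strand, with capitals as above.
Col4a1: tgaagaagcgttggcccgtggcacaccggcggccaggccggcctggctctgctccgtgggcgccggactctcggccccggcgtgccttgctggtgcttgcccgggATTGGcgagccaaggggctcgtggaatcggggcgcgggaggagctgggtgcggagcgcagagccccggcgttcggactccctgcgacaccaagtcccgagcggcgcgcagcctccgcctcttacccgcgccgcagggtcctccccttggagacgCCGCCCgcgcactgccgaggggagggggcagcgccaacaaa
Col4a2: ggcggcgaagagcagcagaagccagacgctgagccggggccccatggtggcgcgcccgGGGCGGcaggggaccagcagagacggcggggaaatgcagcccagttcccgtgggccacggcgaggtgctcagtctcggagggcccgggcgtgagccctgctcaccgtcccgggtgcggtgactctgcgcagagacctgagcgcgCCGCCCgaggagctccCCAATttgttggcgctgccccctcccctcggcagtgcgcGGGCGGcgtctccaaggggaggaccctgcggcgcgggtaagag
Both windows were rich in G and C, at 74.0% for Col4a1 and 73.7% for Col4a2. Within the Col4a1 window ATTGG began at -145 and CCGCCC at 10. Within the Col4a2 window CCAAT began at -32, GGGCGG at -192 and 8, and CCGCCC at -48. The CCAAT of Col4a2 begins outside the shared bases, and the last GGGCGG of Col4a2 is the CCGCCC of Col4a1 read from the other strand.

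Types XV and XVIII are proteoglycans of the basement membrane zone, and the end piece of type XVIII is released as endostatin. Col15a1 had 33.4, 83.1, 78.1, 62.4 and 45.4 in Control and 438, 484, 442, 452 and 326 in AdCKO (7.08-fold, log2 fold change 2.87, SE 0.22, adjusted p = 3.61e-07, limma). Col18a1 had 19.2, 27.0, 36.9, 28.3 and 25.0 in Control and 233, 195, 189, 204 and 162 in AdCKO (7.21-fold, log2 fold change 2.83, SE 0.15, adjusted p = 2.57e-08, limma). Both log2 fold changes lay within the range of the fibrillar genes. Exons of Col15a1 overlap those of the noncoding gene Gm12426 on the opposite strand. Exons of Col4a2 overlap those of Col4a1 and Gm15419, and exons of Col5a1 those of 2810430I11Rik and Gm13372, again on the opposite strand. The remaining type IV genes, Col4a3, Col4a4, Col4a5 and Col4a6, stayed under the level for testing. Col4a5, the highest of them, had 4.18 to 5.47 in Control and 5.38, 5.95, 9.05, 5.92 and 11.6 in AdCKO, so its groups overlapped at the edge, and its 2 highest libraries were the AdCKO libraries without muscle RNA. With only those in the AdCKO group it was tested and called.

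Of the 6 type VI genes the 3 that are widely expressed were tested and rose, with a median log2 fold change of 2.04. Col6a1 had 92.3, 137, 134, 134 and 124 in Control and 499.6, 467, 417, 509 and 369 in AdCKO (log2 fold change 1.86, SE 0.12, adjusted p = 1.05e-07, limma). Col6a2, its neighbour on chromosome 10, had 84.1, 139, 140.4, 139.8 and 135 in Control and 556, 584, 481, 562 and 425 in AdCKO (log2 fold change 2.04, SE 0.14, adjusted p = 2.00e-07, limma). Col6a3, the longest of the 3 chains, had 28.2, 44.0, 46.3, 44.8 and 41.5 in Control and 223, 219.8, 197, 246 and 169 in AdCKO (log2 fold change 2.34, SE 0.14, adjusted p = 5.26e-08, limma). Control replicate 1 was the lowest Control library for all 3, and AdCKO replicate 5 the lowest AdCKO library. Col6a4, Col6a5 and Col6a6 had means between 0.140 and 1.17 in both groups and were not tested.

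Libraries kept much of their order across genes. Over the 15 genes called higher, Control replicate 1 was the lowest Control library in 11 and AdCKO replicate 5 the lowest AdCKO library in 12. Control replicate 3 was the highest of its group in 8 and AdCKO replicate 2 in 7.

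Among the 20 other collagens 6 were tested, of which 2 were called higher, 1 lower and 3 neither. The 2 called higher, Col14a1 and Col16a1, reached the level for testing only in AdCKO, and Col20a1 only in Control. Of the 3 that reached it in both groups, Col27a1 was called lower, and Col8a1 and Col12a1 were not called. The class median log2 fold change was 0.21, which became -0.46 after quantile normalization and 0.71 after scaling to the same library total. It includes the genes tested through 1 group only. Without the AdCKO libraries with muscle RNA 1 was called higher and 1 lower. Col27a1 (mm9, chromosome 4, 62876446 to 62996024, plus strand), a fibril-forming collagen best known from cartilage, went the opposite way to the fibrillar types. It had 181, 135, 135, 135 and 159.9 in Control and 58.9, 52.9, 95.2, 55.2 and 89.1 in AdCKO. The groups did not overlap, with the means at 149 ± 20.9 and 70.3 ± 20.2 (SD, n = 5 each; log2 fold change -1.11, SE 0.17, adjusted p = 9.84e-05, limma). Col27a1 was the 4th most abundant collagen in Control and the 14th in AdCKO. The 3 AdCKO libraries with muscle RNA gave its 3 lowest values, and without them the log2 fold change was -0.68 (adjusted p = 0.00151, limma). The part of muscle RNA in this result was not tested beyond that. Markers of cartilage, tendon and bone were at 13.2 to 17.5 in Control and 17.0 to 21.4 in AdCKO when summed over the 5 present in the table, and none reached the level for testing.

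The Col27a1 window is shown as that of the 1 gene called lower. It lies at chr4:63215162-63215461 on the plus strand.
Col27a1: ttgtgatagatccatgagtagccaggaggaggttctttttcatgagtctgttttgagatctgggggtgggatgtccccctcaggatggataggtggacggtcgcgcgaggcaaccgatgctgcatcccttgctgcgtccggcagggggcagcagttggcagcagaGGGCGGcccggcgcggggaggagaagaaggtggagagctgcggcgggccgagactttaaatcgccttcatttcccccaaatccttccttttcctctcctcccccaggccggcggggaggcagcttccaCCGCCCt
It had 61.7% G or C, with GGGCGG at -85, CCGCCC at 44 and no CCAAT. Over all members, 32 of the 40 genes had 34 windows in the RefSeq table. CCAAT on either strand was present in 32.4% of these windows and in 37.4% of all 32851 windows of the same length, and GGGCGG in 61.8% and 35.7%. TATAA on either strand was in 17.6% and 24.9%. Median G and C content was 59.8% and 52.7%. For the 14 windows of genes called higher, the shares were 42.9% for CCAAT, 64.3% for GGGCGG and 7.14% for TATAA.

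Col14a1 and Col16a1 belong to the collagens that lie on the surface of fibrils. Col14a1 had 4.02, 5.24, 5.60, 3.41 and 4.96 in Control and 13.0, 19.4, 7.24, 14.1 and 11.9 in AdCKO (log2 fold change 1.28, SE 0.21, adjusted p = 2.08e-04, limma). Col16a1 had 2.57 to 4.46 in Control and 8.83 to 12.9 in AdCKO (log2 fold change 1.50, SE 0.15, adjusted p = 3.91e-06, limma). Col12a1 and Col20a1, of the same structural group, were not called. Col12a1 had 17.6, 14.6, 14.6, 7.93 and 13.0 in Control and 12.8 to 16.7 in AdCKO, and the groups overlapped (log2 fold change 0.17, SE 0.17, adjusted p = 0.413, limma), and the value became -0.20 after quantile normalization (not called) and 0.62 after scaling to the same total (adjusted p = 0.00547, limma). Col20a1 had 9.69 to 11.3 in Control and 7.01 to 9.32 in AdCKO, without overlap, and just missed the threshold (log2 fold change -0.37, SE 0.11, adjusted p = 0.0117, limma). It passed without AdCKO replicate 2 (adjusted p = 0.00934, limma) and without AdCKO replicate 5 (adjusted p = 0.00755, limma). After quantile normalization the Col20a1 log2 fold change was -0.76 (adjusted p = 0.000141, limma), and without the libraries with muscle RNA it was -0.32 (adjusted p = 0.0750, limma). Col8a1, a short-chain collagen of vessel walls, had 15.5 to 18.5 in Control and 18.5, 17.5, 29.1, 18.7 and 18.2 in AdCKO (log2 fold change 0.24, SE 0.13, adjusted p = 0.118, limma), and became -0.10 after quantile normalization (not called) and 0.70 after scaling to the same total (adjusted p = 0.000628, limma).

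The 21 genes not tested had group means from 0.132 to 9.34 normalized reads per kb. The highest were Col13a1, a transmembrane collagen, at 7.38 in Control and 9.34 in AdCKO, and Col11a2 at 8.89 and 6.79. For Col13a1, Col28a1, Col6a4 and Col22a1 the AdCKO values were all above the Control values, and for Col23a1, another transmembrane collagen, they were all below. Over all 3831 genes not tested, 953 were above and 164 below in this way, so these counts are no result about the collagens. Col28a1, a relative of type VI known from peripheral nerve, had 2.11 to 3.08 in Control and 4.26 to 6.19 in AdCKO. Of the 8 Schwann cell markers tested 7 were called higher and 1 lower, and their sum over the list was 925 to 1206 in Control and 1059 to 1381 in AdCKO. Values of Col6a4 and Col22a1, between 0.131 and 0.176, lay near the smallest values of the table, where the deposited values do not fall to 0.

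Since the levels are per kb, they could be summed by class. The 40 genes together made up 1966 ± 232 normalized reads per kb in the Control libraries (range 1626 to 2261) and 7729 ± 635 in the AdCKO libraries (range 6633 to 8199.6; SD with n = 5 for both), a ratio of 3.93. Multiplied by gene length, they took 0.152% of all normalized reads in Control and 0.783% in AdCKO. The fibrillar sum rose from a mean of 416 to 3506 and its share of the collagen sum from 21.2% (19.5% to 23.8%) to 45.2% (41.7% to 46.9%). The basement membrane sum went from 1024 to 2866, while its share went from 51.9% (47.5% to 56.8%) to 37.2% (34.5% to 40.9%). Col4a1 and Col4a2 made up most of that sum and rose 2.49-fold and 2.30-fold, less than the collagen sum. Col15a1 and Col18a1 rose 7.08-fold and 7.21-fold, more than the collagen sum, so the smaller share does not hold for every gene of the class. Type VI held 14.9% and 15.3%, with overlapping ranges. The other collagens summed to 214 to 262 in Control and 149 to 199.7 in AdCKO, and their share went from 12.0% to 2.25%. Col27a1, the most abundant gene of that class, had means of 149 in Control and 70.3 in AdCKO and fell by more than the class sum. The lower sum is therefore that of Col27a1 and not of the class as a whole, whose median log2 fold change was 0.21. The fibrillar sum was 0.344 to 0.502 of the basement membrane sum in the Control libraries and 1.02 to 1.35 of it in the AdCKO libraries. The AdCKO libraries without muscle RNA had the lowest fibrillar over basement membrane values of their group, 1.13 and 1.02, and both still lay above every Control library. These sums and shares are descriptions and were not tested.

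**Figure D3:**
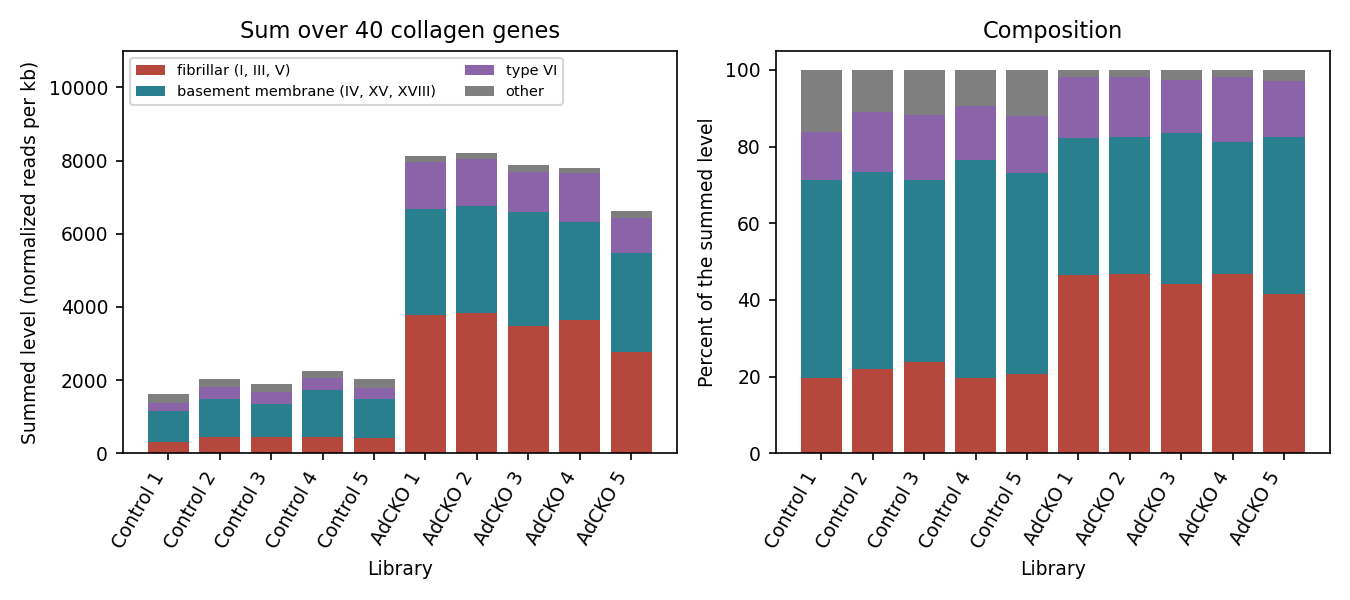
Summed level of the 40 collagen genes in each library (left, normalized reads per kb) and the percent of that sum held by each class (right). The bars of the 5 AdCKO libraries reach 6633 to 8199.6 against 1626 to 2261 in the 5 Control libraries, and the fibrillar share runs from 41.7% to 46.9% against 19.5% to 23.8%.

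Ratios between chains were taken within each library. The 10 pairs were compared by exact two-sided permutation tests of the log2(value + 1) ratio, in which the added 1 weighs on low genes such as Col4a5, and for which the smallest possible p with 5 against 5 is 0.0079, adjusted over the 10 pairs. Type I collagen is mostly assembled from 2 alpha 1 chains and 1 alpha 2 chain. The ratio of Col1a1 to Col1a2 averaged 0.732 ± 0.0498 for Control and 0.923 ± 0.0612 for AdCKO (SD, n = 5 each; log2 difference 0.33, exact adjusted p = 0.0132), without overlap between groups. Col3a1 to Col1a1 averaged 2.47 for Control and 2.19 for AdCKO, and the groups overlapped (log2 difference -0.15, exact adjusted p = 0.238). Col4a1 to Col1a1, a network chain against a fibril chain, averaged 7.64 ± 1.72 for Control and 1.82 ± 0.233 for AdCKO (SD, n = 5 each; log2 difference -2.03, exact adjusted p = 0.0132).

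Other pairs compared chains of the same type or of related types. Col4a1 to Col4a2 went from 1.14 to 1.23 (log2 difference 0.11, exact adjusted p = 0.0132), with Control values of 1.10 to 1.15 and AdCKO values of 1.16 to 1.28. Col5a1 to Col5a2 fell from 1.11 to 0.884 (log2 difference -0.32) and Col6a1 to Col6a2 from 0.981 to 0.868 (log2 difference -0.18), both with an exact adjusted p of 0.0132. Col6a3 to Col6a2 rose from 0.322 to 0.404 (log2 difference 0.31, exact adjusted p = 0.0132; 0.16 with a pseudocount of 10). These 4 ratios had groups that did not overlap. Col5a3 to Col5a2 (2.72 and 2.54) and Col15a1 to Col18a1 (2.19 and 2.18) gave no call, with exact adjusted p of 0.944 and 0.891. Col4a5 to Col4a1 went from 0.0095 to 0.0062 (log2 difference -0.77, exact adjusted p = 0.0340), but the groups overlapped and the call was lost when any 1 of Control replicates 1 to 3 or AdCKO replicates 1 to 4 was left out (exact adjusted p = 0.0680 each time).

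**Figure D4:**
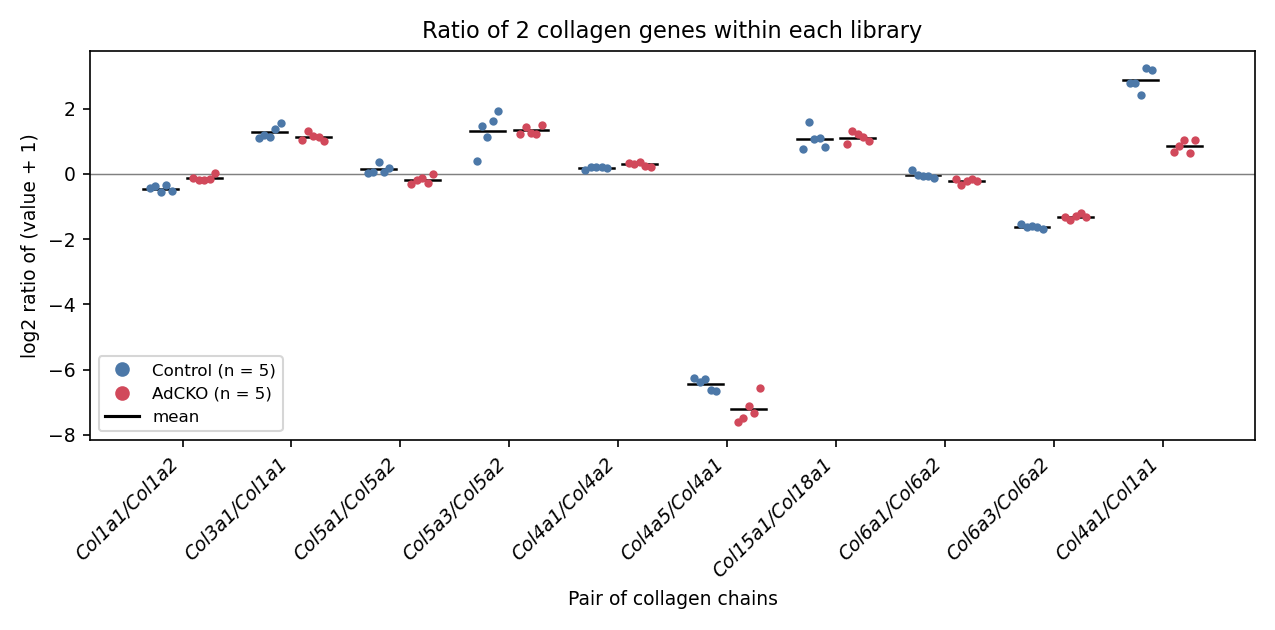
Log2 ratio of (value + 1) for 10 pairs of collagen genes, with a point for each of 5 Control and 5 AdCKO libraries and a line at the mean. The widest gap is that of Col4a1/Col1a1, a log2 difference of -2.03, while Col3a1/Col1a1, Col5a3/Col5a2, Col4a5/Col4a1 and Col15a1/Col18a1 overlap.

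RNA of the genes for proteins that modify and trim collagen moved with that of the collagen genes in part. Of 21 such genes tested 14 were called higher, 1 lower and 6 neither, with a median log2 fold change of 0.81. Without the AdCKO libraries with muscle RNA 11 were called higher and 1 lower. The largest change was that of Pcolce, which helps Bmp1 cut the C-terminal end of fibrillar procollagens, from 162 ± 23.6 to 888 ± 48.4 (SD, n = 5 each; log2 fold change 2.46, SE 0.10, adjusted p = 3.59e-09, limma). Bmp1 itself went from 31.0 to 96.9 (log2 fold change 1.61) and Adamts2, which cuts the N-terminal end and reached the level for testing only in AdCKO, from 8.19 to 32.8 (log2 fold change 1.88). Among genes for endoplasmic reticulum proteins, the chaperone gene Fkbp10 rose by 1.83 on the log2 scale. On the same scale the prolyl 4-hydroxylase subunit genes P4hb and P4ha1 rose by 1.21 and 0.81. The lysyl hydroxylase gene Plod2 rose by 0.87 and the collagen chaperone gene Serpinh1 by 0.77. Plod1, Crtap and Ppib were not called, with log2 fold changes of -0.04, 0.11 and 0.04. Pepd, the prolidase that frees proline from collagen fragments, fell from 353 ± 46.8 to 171 ± 10.5 (SD, n = 5 each; log2 fold change -1.03, adjusted p = 9.82e-07, limma).

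Collagen receptors showed 6 genes higher and 1 lower of 7 tested, with a median log2 fold change of 0.56. Ddr2, a receptor kinase for fibrillar collagen, rose from 24.6 ± 3.92 to 120.0 ± 13.7 (SD, n = 5 each; log2 fold change 2.25, adjusted p = 1.89e-08, limma). Mrc2, an endocytic collagen receptor, and Lair1, an inhibitory receptor of leukocytes, rose by 1.43 and 1.46 on the log2 scale, Lair1 being tested through AdCKO only. Itga1, the alpha chain of a collagen-binding integrin, fell from 51.3 to 32.9 (log2 fold change -0.64, adjusted p = 2.03e-04, limma), and Itgb1, its beta chain, rose by 0.40. Without the AdCKO libraries with muscle RNA 3 receptors were called higher and none lower, where calls over all genes fell as well. Of 21 interstitial matrix genes tested, 19 were called higher, 1 lower and 1 neither, with a median log2 fold change of 1.42. Without the libraries with muscle RNA 17 were called higher and 1 lower. Among the 19, Thbs1, Thbs2, Tnc, Mfap4 and Fbln1 reached the level for testing only in AdCKO. Lum, a small proteoglycan bound to fibrils, rose from 143 to 749 (log2 fold change 2.39, adjusted p = 1.04e-07, limma), and Postn, a matrix protein that binds type I collagen, from 294 to 754 (log2 fold change 1.35, adjusted p = 1.05e-08, limma). Prelp, a related proteoglycan of connective tissue, fell from 1320 ± 235 to 365 ± 31.0 (SD, n = 5 each; log2 fold change -1.84, adjusted p = 1.12e-07, limma).

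Of 14 non-collagen genes of the basement membrane tested, 6 were called higher, 2 lower and 6 neither, with a median log2 fold change of 0.16, and without the libraries with muscle RNA 4 were higher and 2 lower. Nid1 and Nid2, which link laminin to type IV collagen, rose by 1.42 and 1.31 on the log2 scale, and the laminin chain Lamc1 by 0.86. Hspg2, the core protein of perlecan, rose by 0.38, and Lama2, tested through AdCKO only, by 0.45. Lama4 and Lamb1, laminin chains of vessel walls, had log2 fold changes of -0.09 and -0.24 and were not called. Smoc1 and Smoc2, secreted calcium-binding proteins of the basement membrane, fell by 1.48 and 1.15 on the log2 scale.

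**Figure D5:**
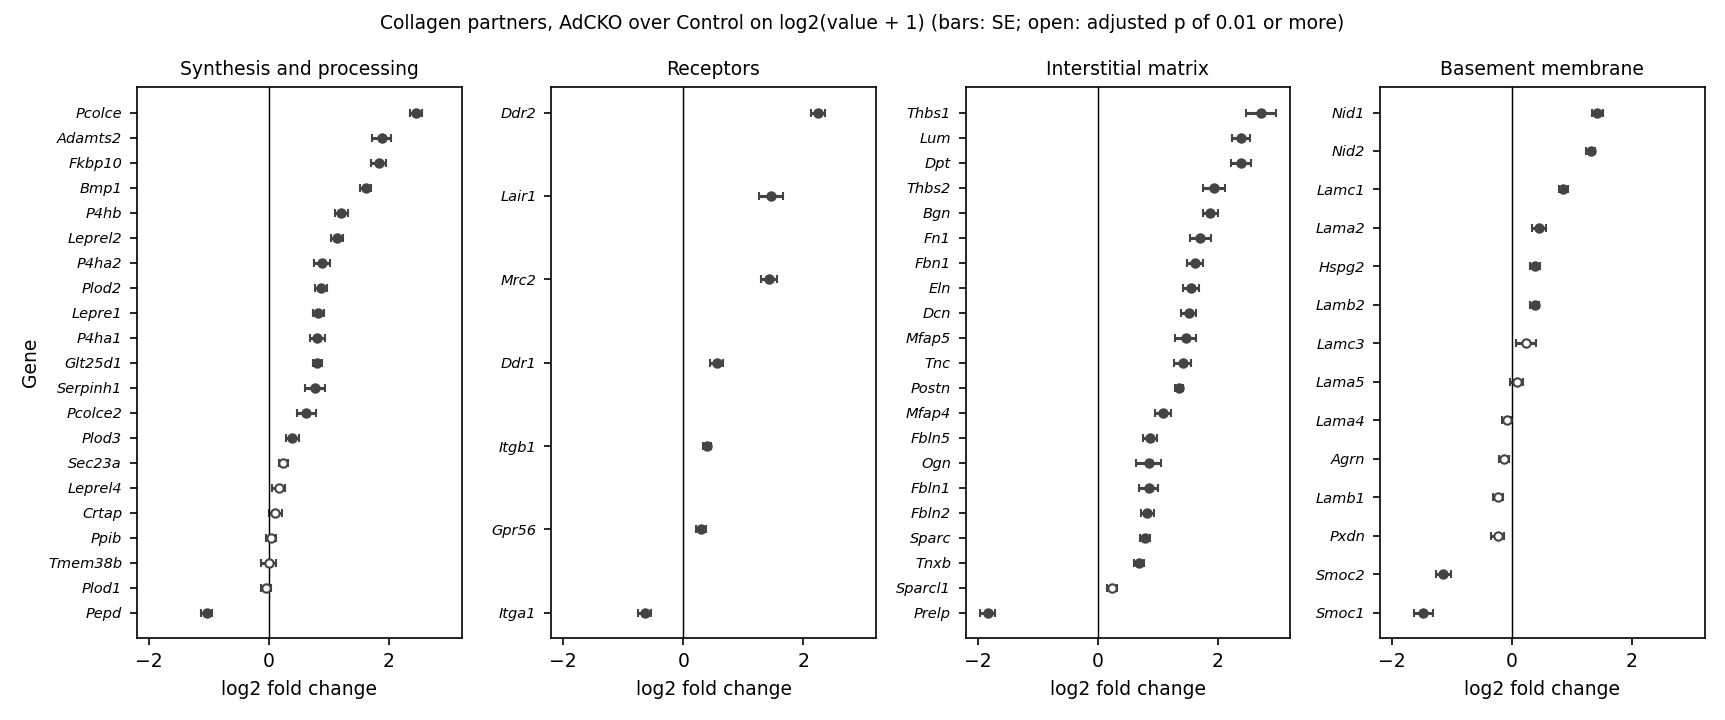
Log2 fold change (AdCKO over Control on log2(value + 1), bars are SE) of the tested genes of collagen synthesis and processing, collagen receptors, interstitial matrix and basement membrane, with open points for an adjusted p of 0.01 or more. Most interstitial genes lie to the right of 0, with Prelp at -1.84 the exception, while the basement membrane genes lie on both sides, from Nid1 at 1.42 to Smoc1 at -1.48.

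Markers of other cell types of the tissue moved in the same comparison. In whole tissue, more cells of a type and more RNA per cell cannot be told apart. Of 8 fibroblast and progenitor markers tested 7 were called higher and none lower, among them Pdgfra at 17.6 and 60.9, and their sum was 578 to 831 in Control and 1709 to 2957 in AdCKO. Fap among them, and Itgam and Fcgr1 among the macrophage markers, were tested through AdCKO only. The lowest fibroblast sum of the AdCKO libraries was that of replicate 5, as for most collagens, and the list shares Dpt and Mfap5 with the interstitial matrix genes. Of 9 macrophage markers tested 8 were called higher, with sums of 419 to 1207 in Control and 5777 to 7841 in AdCKO. Of 10 endothelial markers 4 were called higher, against 25.6% of all genes tested, with overlapping sums of 2007 to 2522 and 2225 to 3008. That count was 2 without Control replicate 1, Control replicate 2 or AdCKO replicate 3. After scaling to the same total it was 9, where 7013 of all 11430 genes tested were called higher. Of 10 mural markers 5 were higher and 3 lower, with sums of 1543 to 1695 and 1978 to 2481. Des, with means of 225 in Control and 808 in AdCKO, weighed most on the AdCKO sum. It varied from 488 to 1357 in AdCKO. The mural sums of the AdCKO libraries with muscle RNA (2291, 2481 and 2424) were above those of AdCKO replicates 3 and 5 (2166 and 1978). The part of muscle RNA in Des and in the mural sum was not tested. Besides Des, the markers called higher were Acta2, Myh11, Cnn1 and Tagln. The 3 called lower were Rgs5 (means of 620 and 335), Cspg4 and Kcnj8, so the mural list did not move as a whole. Among 10 brown adipocyte markers 9 were called lower, and 4 after quantile normalization. Without the libraries with muscle RNA the counts were 7 fibroblast, 8 macrophage, 4 endothelial, 5 mural and 7 Schwann cell markers higher, with 2 mural, 1 Schwann cell and 8 brown adipocyte markers lower. Of the 4 mesothelial and epithelial markers measured, Lrrn4 alone was tested and it was called lower. The part of these cell types in the collagen levels was not tested.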

How the data were processed

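Polyadenylated RNA of iBAT from 5 Control and 5 AdCKO mice was sequenced, 1 library per mouse. The authors aligned the reads to mm9 (STAR), counted those in exons of 1 RefSeq transcript per gene (iRNA-seq) and normalized the result (DESeq2; versions are not given in the sources used here). Each deposited value is a signal, the normalized reads of a gene per kb, already moderated between libraries: none is 0 and the smallest is 0.0532. Read depth is therefore unknown, and no count test or counting interval was possible. Multiplied by length, values summed to 7615403 to 8171138 normalized reads in Control and 5419800 to 5843024 in AdCKO. The table also holds group means, fold changes and adjusted p-values of the authors, and further files list genes they called; none was used.

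Genes with a group mean of at least 10 were fitted with limma 3.58.1 (R 4.3.3; lmFit and eBayes with intensity trend) on log2(value + 1), two-sided, with Benjamini-Hochberg adjustment and a threshold of 0.01; the threshold and minimum follow the study's methods. A fold change on this scale understates the change of low genes. Chain ratios were compared by exact permutation tests (scipy 1.17.1). The fit was tested on simulated data. All 19 collagen genes tested were named. The p-values measure the spread between these mice of deposited values that were already moderated between libraries. How far that moderation narrows the spread of low genes is not known. Alternatives were the pseudocount, filter, scaling, limma options, a block for replicate number, leaving out each library in turn, and, chosen after seeing the data, the 3 AdCKO libraries with muscle RNA left out. The members and gene lists were chosen with earlier results of these data known. Coordinates are mm9; promoter windows are from RefSeq, GRCm38.p6. Gene models of an mm9 annotation gave overlaps.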

Additional observations from a re-analysis of the deposited data

Results flagged for a closer look

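Each of 58 groups of 5 libraries (the collagen genes tested and the chain ratios) was checked for a library whose gap to the nearest other exceeded Dixon's 95% critical value, which chance gives in about 1 of 20 groups. There were 9 such values. Control replicate 1 was the low library for Col3a1 (125.1, the others 166 to 176), Col6a2 (84.1, the others 135 to 140.4), Col6a1 (92.3, the others 124 to 137) and Col6a3 (28.2, the others 41.5 to 46.3), and for the ratio of Col4a1 to Col4a2 (1.10, the others 1.14 to 1.15). AdCKO replicate 5 was low for Col5a2 (94.1, the others 131 to 145) and high for the ratio of Col1a1 to Col1a2 (1.03, the others 0.883 to 0.922). AdCKO replicate 3 was high for Col8a1 (29.1, the others 17.5 to 18.7), and Control replicate 3 was high for Col16a1 (4.46, the others 2.57 to 3.08). No call on a collagen gene named here was lost when the library concerned was left out.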

How the results depend on the processing

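The 15 collagen genes called higher stayed 15 when any 1 library was left out. Each of the called genes kept direction and call in all 21 alternatives, except that Col14a1 without the libraries with muscle RNA and Col16a1 after quantile normalization were not tested. Scaling to the same library total moved the median of all genes by 0.48 on the log2 scale (7013 genes called higher and 1094 lower), with class medians of 3.31 (fibrillar), 2.55 (basement membrane), 2.52 (type VI) and 0.71 (other). It called 5 other collagens higher, 23 genes of collagen synthesis higher, 11 basement membrane partners higher and 0 receptors lower. Collagens called lower, all among the other types, were 3 with no filter, with a mean of at least 1 or after quantile normalization, 2 without the intensity trend, with a robust trend or at an adjusted p under 0.05, and 1 to 2 with a library left out. Quantile normalization called 1 other collagen higher and 2 synthesis genes lower, and turned Col8a1 (-0.10) and Col12a1 (-0.20). With the 3 libraries with muscle RNA left out, 1 other collagen and 3 receptors were called higher and 0 receptors lower, and 5 against 2 libraries cannot go below an exact p of 0.0952 for ratios, so log2 differences of 0.38 (Col1a1/Col1a2), -0.20 (Col5a1/Col5a2), 0.10 (Col4a1/Col4a2), -0.39 (Col4a5/Col4a1), -0.17 (Col6a1/Col6a2), 0.30 (Col6a3/Col6a2) and -1.85 (Col4a1/Col1a1) were not called. Leaving out 1 library gave -0.93 to -0.67 for Col4a5/Col4a1, and turned 2 uncalled ratios: Col5a3/Col5a2 ranged from -0.20 to 0.18 and Col15a1/Col18a1 from -0.033 to 0.17. A pseudocount of 0.1 gave -0.0070 for Col5a3/Col5a2, and one of 10 gave 0.23 for it, 0.16 for Col6a3/Col6a2 and -1.06 for Col4a5/Col4a1. The causes were not tested.

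Replicate numbers did not pair the libraries (same-number correlations of -0.28 to 0.10). With the replicate number as a block the counts stayed at 15 collagens higher and 1 lower. Paired ratios cannot go below an exact p of 0.0625, so with the block the differences of 0.33 (Col1a1/Col1a2), -0.32 (Col5a1/Col5a2), 0.11 (Col4a1/Col4a2), -0.77 (Col4a5/Col4a1), -0.18 (Col6a1/Col6a2), 0.31 (Col6a3/Col6a2) and -2.03 (Col4a1/Col1a1) were not called. Unknown read depth limits statements on the 21 genes with low values.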
